A study of Homo sapiens with 6 samples.

Results

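Transcripts of 10 genes used as markers of tubular injury and of renal progenitor cells were followed in HK-2 cells after knockdown of PARP1. The 10 genes were fixed by name, with earlier results of these data known: CD24, PROM1, VCAM1, SOX4, SOX9, HAVCR1, LCN2, CLU, SPP1 and IGFBP7. Each matched a single row among the 30403 genes of the count table. HK-2 is an established human cell line of proximal tubule epithelium, immortalised with papillomavirus oncogenes and kept as a single line. The shPARP1 group (3 libraries) received a plasmid for an shRNA against PARP1 by lipid-based transfection, and the shCtrl group (3 libraries) a plasmid for a control shRNA in the same way. Both groups grew in DMEM with 10% fetal bovine serum and were harvested 48 h after transfection, and polyadenylated RNA was sequenced. The labels name no injury stimulus for either group, so the values describe these markers in transfected cells in culture.

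A proximal tubule cell that survives damage loses its transporters, takes on a less differentiated state and either recovers or stays in a pro-inflammatory state. In that state it shows proteins that a resting cell barely makes. HAVCR1 and LCN2, known in the clinic as KIM-1 and NGAL, are shed or secreted into urine and serve as indicators of acute kidney injury. SOX9 and SOX4 are transcription factors of the developing and regenerating nephron. CD24 and PROM1 (CD133) together mark scattered tubular cells with progenitor properties, a part of which also carries VCAM1 (CD106).

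PARP1 itself checked the labels. It had 26.9, 26.2 and 28.8 CPM (reads scaled to library size, with TMM factors between libraries) in shPARP1 replicates 1 to 3, against 262, 263 and 259 CPM in shCtrl replicates 1 to 3. Library totals lay between 29387853 and 32809303 counts in shPARP1 and between 24429683 and 26269194 counts in shCtrl. At these totals, 3 counts in a library correspond to 0.0914 to 0.102 CPM in shPARP1 and to 0.114 to 0.123 CPM in shCtrl, and that floor covers counting error only. The leading principal component (64.2% of the variance) divided the groups, and shCtrl replicate 3 stood apart from the other two shCtrl libraries on the next. The labels do not state that replicates came from separate cultures, so a p-value here reflects spread between libraries that could be technical alone.

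The proximal tubule identity of the line was partly visible. Of 15 proximal tubule markers, 7 passed the filter on low counts, and GGT1, a brush-border peptidase, carried most of their summed level of 264 to 281 CPM in shPARP1 and 321 to 348 CPM in shCtrl. Of the 7, 4 were called lower by edgeR, while AQP1 (log2 fold change -0.44), GATM (-0.45) and MIOX (-0.02) were not called. Of all genes tested, 28.5% were called lower, against which this and the marker counts that follow are to be read. The endocytic receptor gene LRP2 averaged 0.0112 CPM in shPARP1 and 0 CPM in shCtrl, and the nuclear receptor gene HNF4A 0.0838 CPM in shPARP1 and 0.0524 CPM in shCtrl, so that both lay under the floor. Markers of the loop and distal nephron summed to at most 0.227 CPM in any shPARP1 library and 0.384 CPM in any shCtrl library, with none tested. Endothelial markers, which matter for VCAM1 because endothelium makes it, summed to between 0.227 and 0.437 CPM in shPARP1 and between 0.418 and 0.539 CPM in shCtrl. KDR and TEK were not listed among the deposited genes. Fibroblast and pericyte markers summed to 10.1 to 10.9 CPM in shPARP1 and 19.2 to 22.7 CPM in shCtrl, with 3 of 6 tested, 2 of them called lower and COL1A2 not listed. Leukocyte markers summed to 21.9 to 25.4 CPM in shPARP1 and 33.8 to 37.3 CPM in shCtrl, mostly from CSF1R, with 3 of 8 tested, 2 of them called lower and PTPRC not listed. Podocyte markers summed to 97.6 to 99.8 CPM in shPARP1 and 209 to 232 CPM in shCtrl, nearly all from SYNPO, which encodes an actin-binding protein. The part of the proximal tubule, fibroblast, leukocyte and podocyte marker genes in the results below was not tested.

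The marker genes did not move together. CD24, IGFBP7, HAVCR1, SOX4, CLU and SPP1 fell after PARP1 knockdown, SOX9 rose at very low levels, LCN2 did not pass the test, VCAM1 passed it by a narrow margin on the lower side, and PROM1 was not detectable. A gene was called at an adjusted p under 0.05 from edgeR's quasi-likelihood test, with Benjamini-Hochberg adjustment over all 16040 genes tested. Of the 10 genes, 9 passed the filter on low counts, and of these 7 were called lower and 1 higher. Over all genes tested, 55.7% were called, 28.5% lower and 27.3% higher, so a call by itself was common in this comparison. The libraries of the groups did not overlap in CPM for 8 of the 9 genes, against 60.1% of all genes tested. SOX9 passed the filter through its shPARP1 libraries alone, and a gene that passes that way has to differ, so the counts over the genes that passed are given as a description. The median log2 fold change of the 9 genes was -0.55, against -0.01 over all genes tested.

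**Figure D1:**
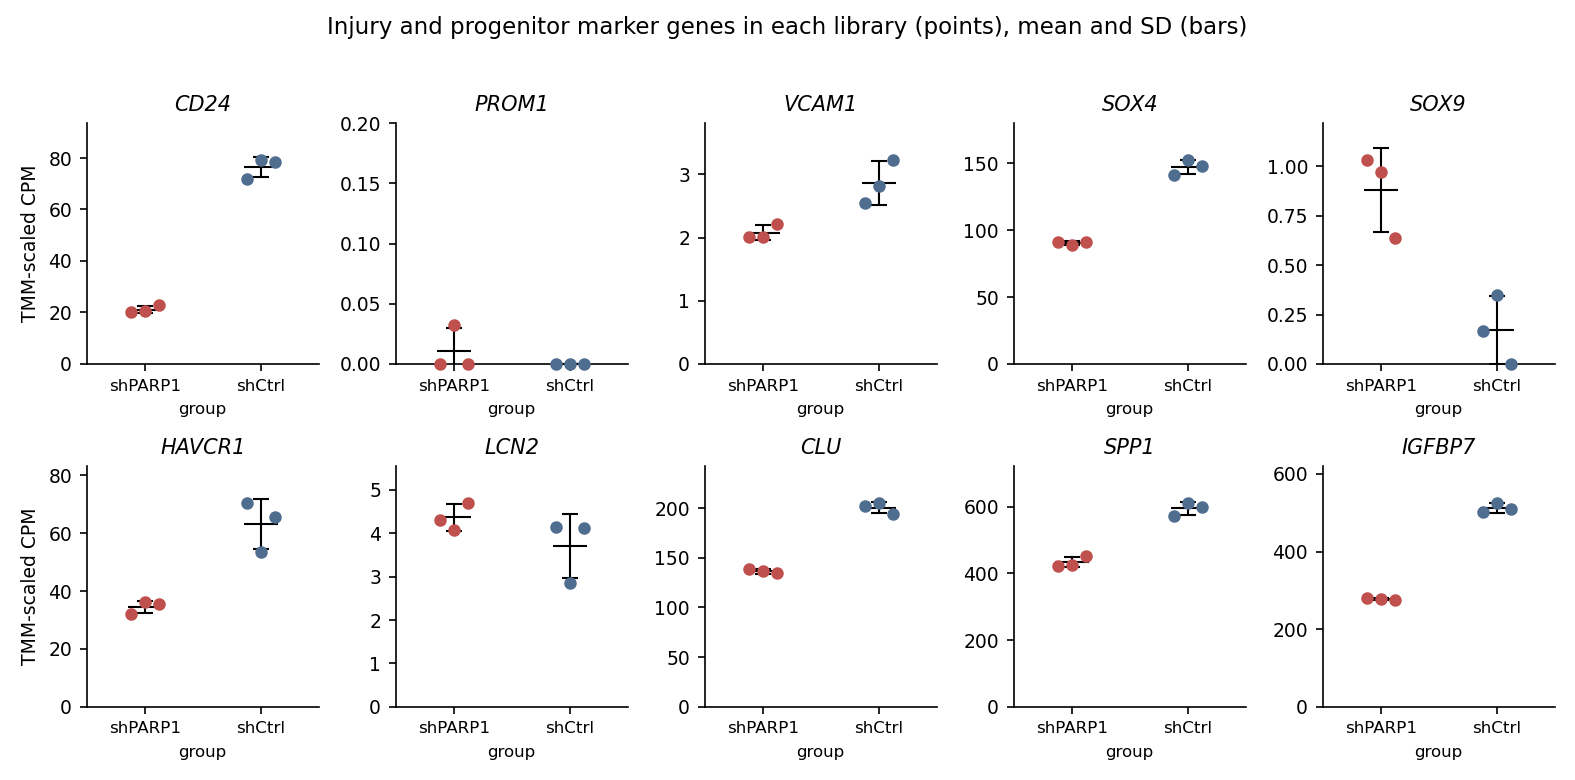
TMM-scaled CPM of the 10 marker genes in each library, with the 3 shPARP1 libraries on the left and the 3 shCtrl libraries on the right of each panel; points are libraries, black bars are the mean and SD, and each panel has its own axis from 0. For CD24 the shPARP1 libraries sit between 20.2 and 22.9 CPM, all below the shCtrl libraries at 71.9 to 79.3 CPM, while for LCN2 the groups overlap and PROM1 lies under the counting floor in every library.

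CD24 was the marker with the deepest fall. CD24 encodes a short, heavily glycosylated protein tethered to the outer cell membrane by a lipid anchor. It had 20.2, 20.4 and 22.9 CPM in shPARP1, against 71.9, 79.3 and 78.5 CPM in shCtrl. The groups lay far apart, with narrow spread in each. In bulk RNA, fewer cells carrying a transcript and less of it per cell cannot be told apart, which holds for every marker here. The log2 fold change, shPARP1 over shCtrl, was -1.86 (SE 0.06, 95% interval -1.97 to -1.74, edgeR quasi-likelihood adjusted p = 5.17e-34), so that 27.6% of the control level was left. Of the genes tested, 0.611% had a larger absolute log2 fold change. CD24 was the single marker called lower by at least 2-fold, a size that 4.07% of all tested genes reached in that direction. With the length and GC correction HAVCR1 (-1.01) and IGFBP7 (-1.03) also passed that size. SOX9 was the single marker called higher by at least 2-fold, against 2.41% of all tested genes. It passed the filter only through the group where it is high, so that count is a description. The CD24 gene (ENSG00000272398) occupies chr6:106969831-106975627, minus strand, on GRCh38 in GENCODE 29, the source of all gene positions here. It has processed copies elsewhere in the genome, and the counting method is not stated, so reads of near-identical copies may have been dropped or shared in its counts.

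PROM1, the partner of CD24 in the progenitor definition, encodes the membrane protein prominin-1 of microvilli and cilia. It had 0, 1 and 0 reads in shPARP1 and 0, 0 and 0 reads in shCtrl. Each library was therefore under its own floor of 3 counts, and no difference was detectable at this depth. The cells thus carried CD24 transcripts without detectable PROM1 transcripts in both groups. Its relative PROM2, which encodes prominin-2, was measurable, with 4.49 ± 0.482 CPM in shPARP1 and 5.89 ± 0.399 CPM in shCtrl (SD, n = 3 each), and was called lower (log2 fold change -0.39, edgeR adjusted p = 0.0137). PROM2 was taken up after its values were seen. The PROM1 gene (ENSG00000007062) occupies chr4:15963076-16084378, minus strand.

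VCAM1 encodes an adhesion receptor for leukocyte integrins that NF-kB induces in endothelium and in tubular cells that fail to recover. It had 66, 62 and 66 reads in shPARP1, against 61, 73 and 84 reads in shCtrl, which gave 2.004, 2.009 and 2.216 CPM in shPARP1 and 2.55, 2.81 and 3.23 CPM in shCtrl. The CPM of the groups did not overlap, but the read counts did, since the shPARP1 libraries were deeper. The log2 fold change was -0.47 (SE 0.20, 95% interval -0.86 to -0.07, edgeR quasi-likelihood adjusted p = 0.0388). The call was lost in 10 of 19 alternative settings, among them DESeq2 (-0.46, adjusted p = 0.0802), scaling by library totals (-0.44, adjusted p = 0.055) and the omission of any single library other than shCtrl replicate 1, with adjusted p between 0.0549 and 0.147. The VCAM1 gene (ENSG00000162692) occupies chr1:100719742-100739045, plus strand.

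SOX4 fell and SOX9 rose, the rise of SOX9 given as a description because of how it passed the filter. SOX4 encodes a single-exon transcription factor with a high-mobility-group DNA-binding domain, active in nephron progenitors. It had 91.6, 88.7 and 91.0 CPM in shPARP1, against 142, 153 and 148 CPM in shCtrl. The shPARP1 libraries lay close together, with a coefficient of variation of 1.68%, against 3.72% in shCtrl, and well below the control range. The log2 fold change was -0.71 (SE 0.04, 95% interval -0.79 to -0.62, edgeR adjusted p = 5.07e-22). The SOX4 gene (ENSG00000124766) occupies chr6:21592768-21598619, plus strand.

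SOX9, the factor switched on in tubular cells that repair after damage, had 34, 30 and 19 reads in shPARP1, against 4, 9 and 0 reads in shCtrl. Scaled for depth this gave 1.03, 0.972 and 0.638 CPM in shPARP1 and 0.167, 0.347 and 0 CPM in shCtrl. All 3 shPARP1 libraries lay above all 3 shCtrl libraries, yet counts were low in both groups, with 83 reads in shPARP1 and 13 in shCtrl over 3 libraries each. The shPARP1 libraries lay above the floor of 3 counts, while shCtrl replicate 3 lay under it with 0 reads. The log2 fold change was 2.34 (SE 0.51, 95% interval 1.31 to 3.36, edgeR adjusted p = 9.12e-05), or 5.06-fold. SOX9 passed the filter only through the group where it is high, so this p-value is given as a description. The size of the change depended on single control libraries: the log2 fold change was 3.40 without shCtrl replicate 2 and 1.75 without shCtrl replicate 3, the library with no read. It was 3.01 by limma-voom, 0.21 on the log2(FPKM + 1) scale and 1.13 on the log2(FPKM + 0.1) scale, and a difference on a scale with a pseudocount understates the change of a low gene. The SOX9 gene (ENSG00000125398) occupies chr17:72121020-72126420, plus strand.

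Among the injury proteins, HAVCR1 fell and LCN2 did not pass the test. HAVCR1 encodes a receptor for phosphatidylserine with which injured tubular cells take up dying neighbours. It had 32.1, 36.0 and 35.4 CPM in shPARP1, against 70.5, 53.6 and 65.5 CPM in shCtrl. The groups were apart, while the shCtrl libraries spread widely, and replicate 2 was the lowest of them. The coefficient of variation was 6.06% in shPARP1 and 13.8% in shCtrl. The log2 fold change was -0.87 (SE 0.08, 95% interval -1.04 to -0.70, edgeR adjusted p = 1.42e-08), and 54.7% of the control level was left. The HAVCR1 gene (ENSG00000113249) occupies chr5:157029413-157059119, minus strand.

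LCN2 encodes a secreted lipocalin that binds bacterial siderophores and is released early by damaged tubules and by neutrophils. It had 4.31, 4.08 and 4.70 CPM in shPARP1, against 4.14, 2.85 and 4.11 CPM in shCtrl. The groups overlapped, and shCtrl replicate 2 was the lowest of the 6 libraries. For HAVCR1 it was the lowest of the shCtrl libraries only. The log2 fold change was 0.24 (SE 0.16, 95% interval -0.08 to 0.56, edgeR adjusted p = 0.205), so a rise by up to that upper bound was not resolved from no change at 74 to 142 reads a library. The LCN2 gene (ENSG00000148346) occupies chr9:128149071-128153455, plus strand.

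CLU encodes clusterin, a secreted chaperone that rises in many forms of tubular damage. It had 139, 137 and 134 CPM in shPARP1, against 202, 205 and 194 CPM in shCtrl. The ranges were narrow and well apart, and the log2 fold change was -0.55 (SE 0.04, 95% interval -0.63 to -0.48, edgeR adjusted p = 4.16e-19). The CLU gene (ENSG00000120885) occupies chr8:27596917-27615031, minus strand.

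SPP1 encodes a secreted ligand of integrins and CD44, and IGFBP7 a secreted protein that binds insulin-like growth factors, and both fell. SPP1, which encodes the phosphoprotein osteopontin, had 423, 427 and 451 CPM in shPARP1, against 573, 612 and 600.4 CPM in shCtrl. IGFBP7, whose protein is measured in urine together with TIMP2 as a sign of tubular cell-cycle arrest, had 281, 277 and 275 CPM in shPARP1, against 501, 526 and 509 CPM in shCtrl. Neither gene's groups overlapped, and IGFBP7 fell further (log2 fold change -0.88, SE 0.03, 95% interval -0.95 to -0.82, edgeR adjusted p = 9.53e-31) than SPP1 (-0.46, SE 0.03, 95% interval -0.52 to -0.39, edgeR adjusted p = 3.27e-18), with intervals that did not meet. TIMP2, the urinary partner of IGFBP7, was also called lower, with 356 ± 4.85 CPM in shPARP1 and 669 ± 9.38 CPM in shCtrl (SD, n = 3 each).

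The IGFBP7 locus is shared with other genes. IGFBP7 (ENSG00000163453) occupies chr4:57030773-57110385, minus strand, and on the opposite strand POLR2B shares 270 and IGFBP7-AS1 94 exonic bases with it in GENCODE 29. POLR2B, a subunit gene of RNA polymerase II, had 1881, 1784 and 1709 reads in shPARP1 and 1277, 1482 and 1376 in shCtrl. These reads and those below are not scaled for depth, and the shPARP1 libraries were deeper. They do not by themselves give the direction of a change. IGFBP7-AS1 had 16, 14 and 16 reads in shPARP1 and 34, 40 and 37 in shCtrl. The kit marks strand, but how strand was set in counting is not stated, so antisense reads may not have been separated. For comparison, IGFBP7 had 8195 to 9252 reads in shPARP1 and 11986 to 13641 in shCtrl. The SPP1 gene (ENSG00000118785) occupies chr4:87975650-87983426, plus strand.

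**Figure D2:**
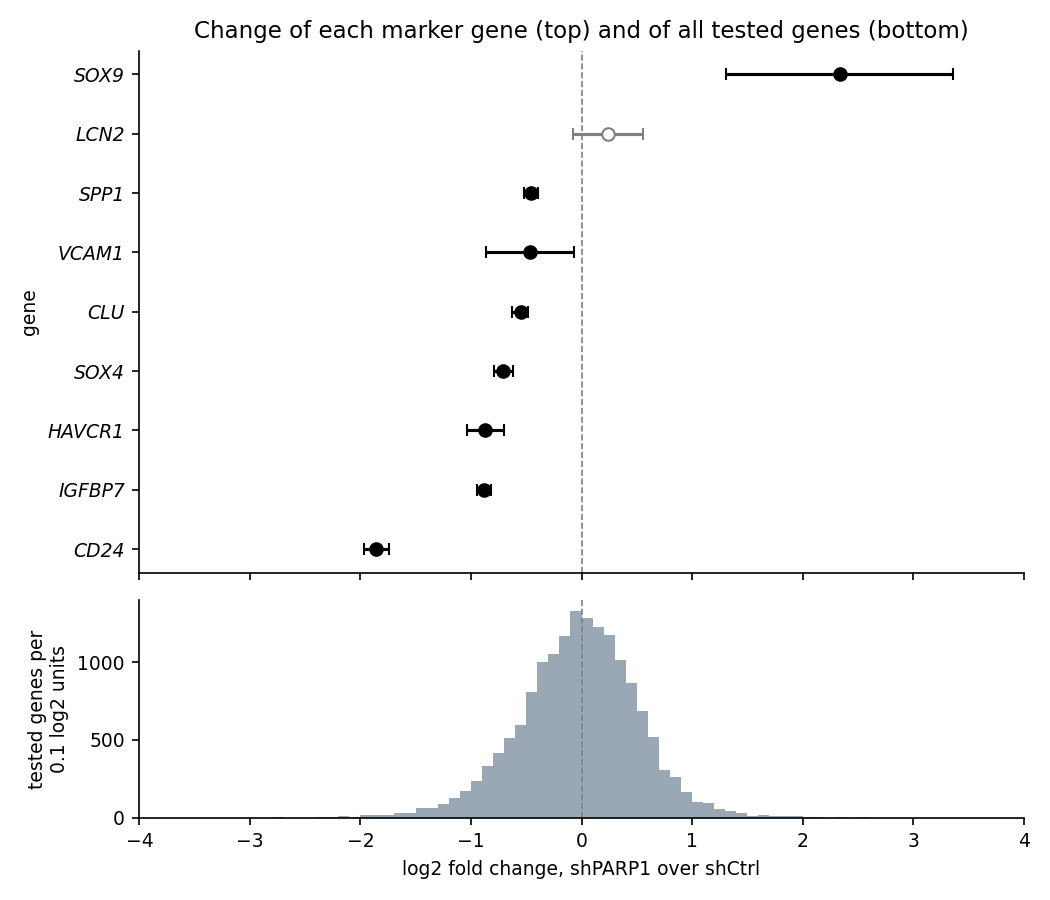
Top, log2 fold change (shPARP1 over shCtrl) of the 9 marker genes tested, with 95% intervals from edgeR's quasi-likelihood fit on 3 libraries a group. Filled points have an adjusted p under 0.05 and the open point does not. SOX9 passed the filter through its shPARP1 libraries alone, so its filled point is a description. Bottom, the number of tested genes in each 0.1-wide bin of log2 fold change, with values beyond the axis in the end bins: CD24 at -1.86 and SOX9 at 2.34 lie in the tails, the other 7 markers within the body of the distribution.

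Per gene length, the markers spanned a wide range in the deposited FPKM (fragments per kilobase of transcript, scaled to library depth). SPP1 was the most abundant, with 230.3 to 247 FPKM in shPARP1 and 299.7 to 329 FPKM in shCtrl. IGFBP7 followed, with 136 to 138 FPKM in shPARP1 and 237 to 255 FPKM in shCtrl, then CLU with 30.8 to 31.8 FPKM in shPARP1 and 43.0 to 46.2 FPKM in shCtrl. LCN2, VCAM1 and SOX9 followed at the low end in both groups, in that order. PROM1 was last in shPARP1, while in shCtrl its range overlapped that of SOX9. SPP1 and IGFBP7 together held 84.0% to 84.3% of the summed FPKM of the 10 genes in shPARP1 and 82.0% to 83.3% in shCtrl.

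The middle of the order differed between the groups. In shPARP1, HAVCR1 (13.4 to 15.1 FPKM) and SOX4 (13.6 to 14.0 FPKM) overlapped and CD24 (5.90 to 6.73 FPKM) lay below them. In shCtrl, HAVCR1 (21.97 to 28.15 FPKM), SOX4 (20.8 to 23.0 FPKM) and CD24 (20.2 to 22.9 FPKM) could not be ordered, since each overlapped its neighbour. The FPKM ratio of CD24 to SOX4 was 0.423, 0.442 and 0.483 in shPARP1, against 0.974, 0.997 and 1.02 in shCtrl. The ratio of IGFBP7 to SPP1 was 0.599, 0.586 and 0.551 in shPARP1, against 0.789, 0.776 and 0.767 in shCtrl. Both ratios are taken within a library, so they do not depend on how libraries were scaled to each other.

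**Figure D3:**
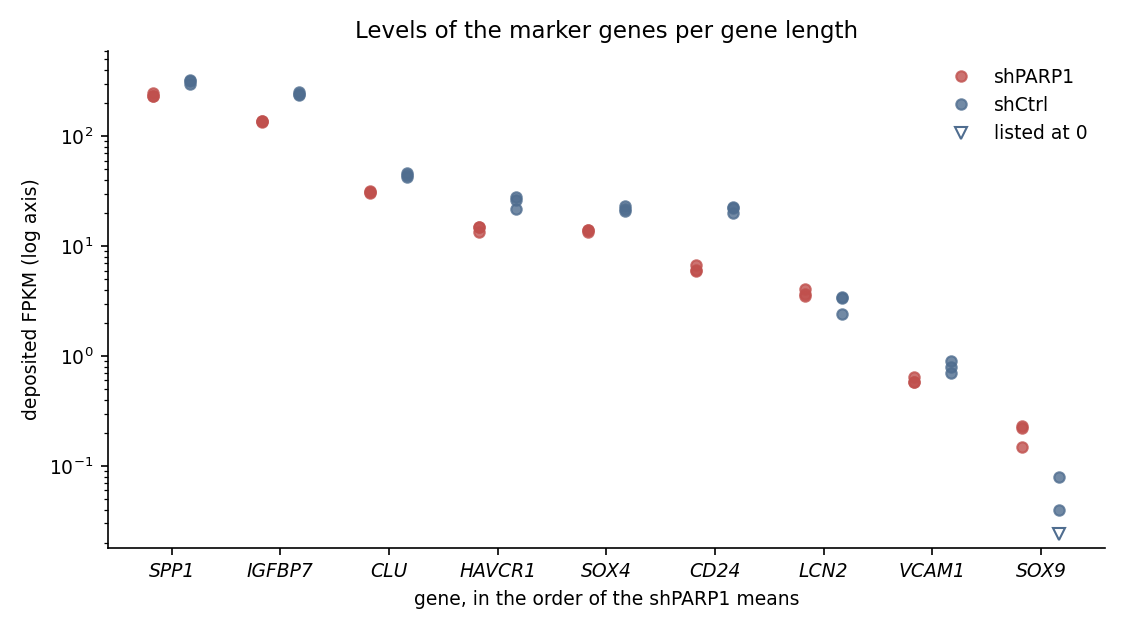
Deposited FPKM of 9 marker genes on a log axis, one point per library, with shPARP1 on the left and shCtrl on the right of each gene; the open triangle is the shCtrl library in which SOX9 is listed at 0, and PROM1 is left out because it reached at most 0.01 FPKM. CD24 lies level with SOX4 in shCtrl and below it in shPARP1.

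Promoter sequence was compared for the markers that are in the RefSeq promoter table (GRCh38.p14), 7 of 10; SOX9, CLU and IGFBP7 were not matched. The 250 bases before the annotated start are shown for CD24, the marker with the deepest fall, and for VCAM1, an NF-kB target whose call was lost in 10 of 19 alternatives. CD24 spans chr6:106975628-106975877 on the minus strand, the most upstream of 3 listed starts, and VCAM1 chr1:100719492-100719741 on the plus strand. Capitals mark matches on either strand to the NF-kB consensus, AP-1 (TGANTCA), TEAD (GGAATG), SOX (AACAAT), the CCAAT box (CCAAT), the TATA box (TATAAA) or Sp1 (GGGCGG). The NF-kB consensus was GGGR, NN and YYCC in a row, where R is A or G, Y is C or T and N is any base. Letters had to match exactly, so a word that departs from these by any letter stays in lower case. Each sequence runs 5′ to 3′ towards the start.
CD24: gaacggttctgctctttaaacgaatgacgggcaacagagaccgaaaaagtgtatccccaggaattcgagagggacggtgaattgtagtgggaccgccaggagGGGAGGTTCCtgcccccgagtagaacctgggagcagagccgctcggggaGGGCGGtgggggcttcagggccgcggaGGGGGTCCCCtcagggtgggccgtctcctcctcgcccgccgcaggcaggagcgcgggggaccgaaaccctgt
VCAM1: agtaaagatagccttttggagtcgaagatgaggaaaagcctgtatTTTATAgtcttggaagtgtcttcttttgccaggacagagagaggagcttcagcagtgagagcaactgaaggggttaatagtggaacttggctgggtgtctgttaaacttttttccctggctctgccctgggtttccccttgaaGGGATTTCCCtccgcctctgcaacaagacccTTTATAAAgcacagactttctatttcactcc

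The starts differed in composition and in the words they held. The SOX4 and LCN2 windows reach into exons of longer GENCODE transcripts, SOX4 over its whole length. The SPP1 window reaches 64 bases and the HAVCR1 window 3 bases into the GENCODE gene. The CD24 window had 65.6% GC and 20 CpG dinucleotides and the SOX4 window 48.8% and 8, against 46.0% and 2 for VCAM1 and 54.8% and 4 for LCN2. The median over all 35116 windows of the table was 58.0% GC and 11 CpG. The CD24 window described here is that of the most upstream listed start, before which the NF-kB consensus matched at 2 places. Of the other listed CD24 starts, it matched at 2 places before position 106975465 and at 0 before position 106974039. The windows before 106975627, the most upstream start, and before 106975465 overlap, and the match GGGGGTCCCC is the same place in both. Which CD24 start these cells use was not tested. The NF-kB consensus matched at 1 place each before VCAM1 (62 to 53 bases before the start) and LCN2 (175 to 166 bases before it). Farther up in the VCAM1 window lies gggtttcccc, which has t where the consensus asks A or G and was not counted. These counts are therefore of exact matches, not of all NF-kB sites. The NF-kB consensus matched in 9.96% of all windows. VCAM1 had TATAAA on both strands in overlapping letters between 31 and 24 bases before the start and once farther up, a word found in 10.7% of all windows. SOX4 had 4 matches to CCAAT, which 32.0% of all windows hold, and the farthest of them overlaps a match to GGAATG (11.9% of all windows). In LCN2 the NF-kB match contains a match to GGAATG, and a second one lies closer to the start. LCN2 also had 1 match to TGANTCA (6.57% of all windows) and 1 to CCAAT, and CD24 had 1 to GGGCGG (42.6% of all windows). AACAAT, found in 8.98% of all windows, was in none of these 4 windows. HAVCR1 (43.2% GC, 2 CpG) and SPP1 (44.8% GC, 3 CpG), which both fell, matched none of the words searched. A match describes letters only.

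Genes whose transcripts followed a similar course were sought among 9648 genes with at least 5 CPM in both groups, by the distance between log2 CPM values centred over the 6 libraries. With 2 groups, genes of like fold change lie near by this measure. The neighbours therefore largely restate the fold change, and no link between the genes was tested. The closest to CD24 were RTN4, an endoplasmic reticulum protein gene (distance 0.243, log2 fold change -1.68), and XKR7 (0.243, -1.76). The closest to IGFBP7 were the secreted Wnt modulator gene DKK3 (0.0454, -0.89) and SPARC (0.0464, -0.86), which encodes a collagen-binding matrix protein. LIPA, a lysosomal lipase gene (0.0401, -0.70), and NIPAL4 (0.0434, -0.73) were closest to SOX4, and GRINA (0.0238, -0.56) and TM9SF4 (0.0408, -0.57) to CLU. SPP1 was matched by CD59, a complement inhibitor gene (0.0476, -0.47), and MAT2A (0.0513, -0.45). HAVCR1 was matched by the mitochondrial proline tRNA gene MT-TP (0.0721, -0.90) and TRAM2 (0.198, -0.79), and VCAM1 by CA5B (0.0849, -0.48) and ADAMTSL5 (0.0874, -0.46). For SOX9 the nearest were CSF2 at 1.76 and IFT27 at 1.80, but SOX9 itself lies under the 5 CPM asked of candidates, so these distances say nothing on whether a gene at its own level follows it.

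Binding partners of the marker proteins were lower on the whole. This list and those that follow were chosen with earlier results of these data known, so their shares are given as a description. Of 26 genes named, 18 were tested, and 13 were called lower (72.2%, against 28.5% of all genes tested) and 0 higher. The number higher was also 0 by edgeR at an unadjusted p under 0.05, by DESeq2 and by limma-voom. The median log2 fold change was -0.53, against -0.01 over all genes tested. For osteopontin, the integrin subunit genes ITGB3 (126 ± 3.11 CPM in shPARP1 and 265 ± 12.8 CPM in shCtrl; log2 fold change -1.08), ITGB1 (304 ± 6.93 CPM in shPARP1 and 507 ± 32.2 CPM in shCtrl; -0.74) and ITGB5 (495 ± 10.9 CPM in shPARP1 and 771 ± 30.9 CPM in shCtrl; -0.64) fell (SD, n = 3 each). CD44, its other receptor, did not pass the test (457 ± 13.8 CPM in shPARP1 and 479.8 ± 6.28 CPM in shCtrl; edgeR adjusted p = 0.0581). A receptor each of clusterin and lipocalin-2 was lower too, while LRP2, which binds both, was too low to test. VLDLR, which binds clusterin and lipoproteins, had 41.6 ± 0.325 CPM in shPARP1 and 112 ± 4.83 CPM in shCtrl (-1.43), and SLC22A17, the lipocalin-2 receptor gene, 41.8 ± 1.50 CPM in shPARP1 and 72.8 ± 2.15 CPM in shCtrl (-0.80). ITGA4, which pairs with the beta-1 chain to bind VCAM1, had 1.09 ± 0.138 CPM in shPARP1 and 1.35 ± 0.235 CPM in shCtrl and was not called (edgeR adjusted p = 0.376). CD44, SLC22A17 and ITGA4 were taken up after their values were seen.

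**Figure D4:**
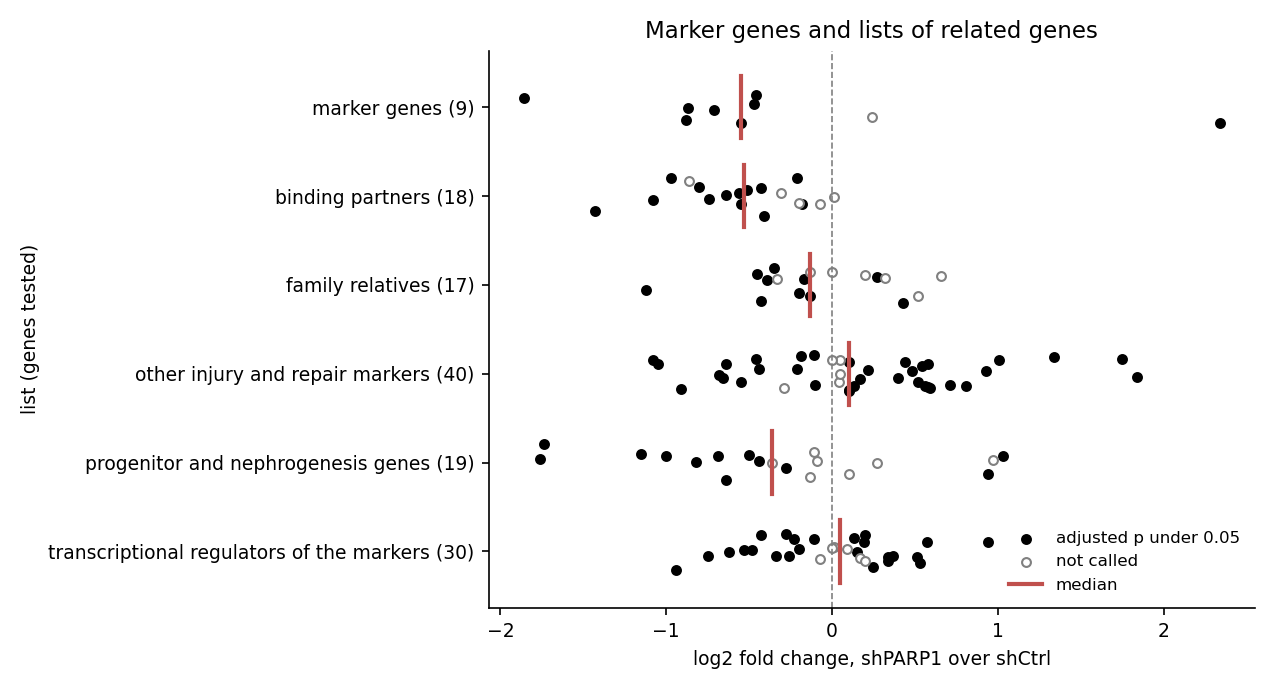
Log2 fold change (shPARP1 over shCtrl) of each tested gene in the marker group and in 5 lists of related genes, one point per gene, filled where the adjusted p is under 0.05; red bars are medians and points are spread vertically for legibility. Binding partners lie on the lower side with a median of -0.53, while the other injury and repair markers spread to both sides around 0.10.

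Family relatives of the markers went both ways. Of 36 named genes 17 were tested, and 8 were called lower (47.1%, against 28.5% of all genes tested) and 2 higher, with a median log2 fold change of -0.13. On either FPKM scale 5 were called lower. The SOX family was mixed: SOX12 rose (327 ± 11.6 CPM in shPARP1 and 243 ± 2.87 CPM in shCtrl, 0.43), SOX18 (-0.35) and SOX13 (-0.20) fell, and SOX11 was not called (-0.13, edgeR adjusted p = 0.397). Of the relatives of HAVCR1, TIMD4, another phosphatidylserine receptor gene, fell (1.81 ± 0.177 CPM in shPARP1 and 3.96 ± 0.469 CPM in shCtrl, -1.12), while HAVCR2 was not called (0.52, edgeR adjusted p = 0.396). ICAM1, an adhesion receptor gene related to VCAM1, fell by 0.45 on the log2 scale. Its relatives ICAM2 (0.20, edgeR adjusted p = 0.142) and MADCAM1 (-0.33, edgeR adjusted p = 0.547) were not called. Among insulin-like growth factor binding protein genes, IGFBP4 rose (110 ± 2.82 CPM in shPARP1 and 90.7 ± 2.94 CPM in shCtrl, 0.27), whereas IGFBP3 (-0.17) and IGFBP6 (-0.13) fell. SOX18, SOX13, SOX11, HAVCR2, ICAM2, MADCAM1, IGFBP3 and IGFBP6 were taken up after their values were seen.

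Other injury and repair markers went both ways. Of 48 named symbols 40 were tested, and 22 were called higher (55.0%, against 27.3% of all genes tested) and 13 lower (32.5%, against 28.5%), with a median log2 fold change of 0.10. The neutrophil chemokine gene CXCL8 (265 ± 7.91 CPM in shPARP1 and 74.0 ± 4.16 CPM in shCtrl, 1.84) and the epidermal growth factor receptor ligand gene AREG (86.9 ± 6.60 CPM in shPARP1 and 25.9 ± 1.63 CPM in shCtrl, 1.75) rose. CDH6, a cadherin gene of immature tubules, fell (215 ± 5.18 CPM in shPARP1 and 446 ± 9.59 CPM in shCtrl, -1.05). VIM, the intermediate filament gene that dedifferentiated tubular cells switch on, did not pass the test (1119 ± 26.3 CPM in shPARP1 and 1077 ± 28.1 CPM in shCtrl, edgeR adjusted p = 0.119), and was taken up after its values were seen.

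Progenitor and nephrogenesis genes were called lower more often than higher. Of 28 named genes 19 were tested, and 10 were called lower (52.6%, against 28.5% of all genes tested) and 2 higher, with a median log2 fold change of -0.36. The number called higher was 4 with library totals, with log2(FPKM + 0.1) and with the length and GC correction, and 1 with the 1 CPM filter or without shCtrl replicate 3. The receptor gene NOTCH2 fell (58.8 ± 4.81 CPM in shPARP1 and 196 ± 5.91 CPM in shCtrl, -1.74), as did the transcriptional co-regulator gene CITED2 (90.4 ± 0.718 CPM in shPARP1 and 201 ± 2.65 CPM in shCtrl, -1.15). NES, which encodes the stem cell filament nestin, rose (186 ± 2.86 CPM in shPARP1 and 97.0 ± 8.53 CPM in shCtrl, 0.94). SIX2, a factor of the nephron progenitor, had 4.74 ± 0.866 CPM in shPARP1 and 7.69 ± 0.204 CPM in shCtrl and was called lower (-0.69, edgeR adjusted p = 8.89e-06). Of the 19 genes tested, 7 were not called, among them OSR1 (-0.36, edgeR adjusted p = 0.202), CITED1 (0.27, 0.625) and SALL1 (-0.09, 0.639). SIX2, OSR1, CITED1 and SALL1 were taken up after their values were seen.

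Known transcriptional regulators of the markers were called in both directions. All 30 named genes were tested, with 12 called higher (40.0%, against 27.3% of all genes tested), 12 lower (40.0%, against 28.5%) and a median log2 fold change of 0.05. The split was 15 higher and 10 lower with the length and GC correction, 14 and 10 with library totals, and 13 and 10 on both FPKM scales. The hypoxia factor gene HIF1A (33.0 ± 1.74 CPM in shPARP1 and 63.2 ± 6.48 CPM in shCtrl, -0.94) and NFKBIZ (83.3 ± 2.14 CPM in shPARP1 and 121 ± 1.93 CPM in shCtrl, -0.53), a co-activator gene for LCN2, fell. NFKBIA, which encodes the NF-kB inhibitor that NF-kB itself induces, rose (104 ± 1.62 CPM in shPARP1 and 71.7 ± 2.22 CPM in shCtrl, 0.53). These are transcript levels, and the activity of the factors was not measured.

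**Figure D5:**
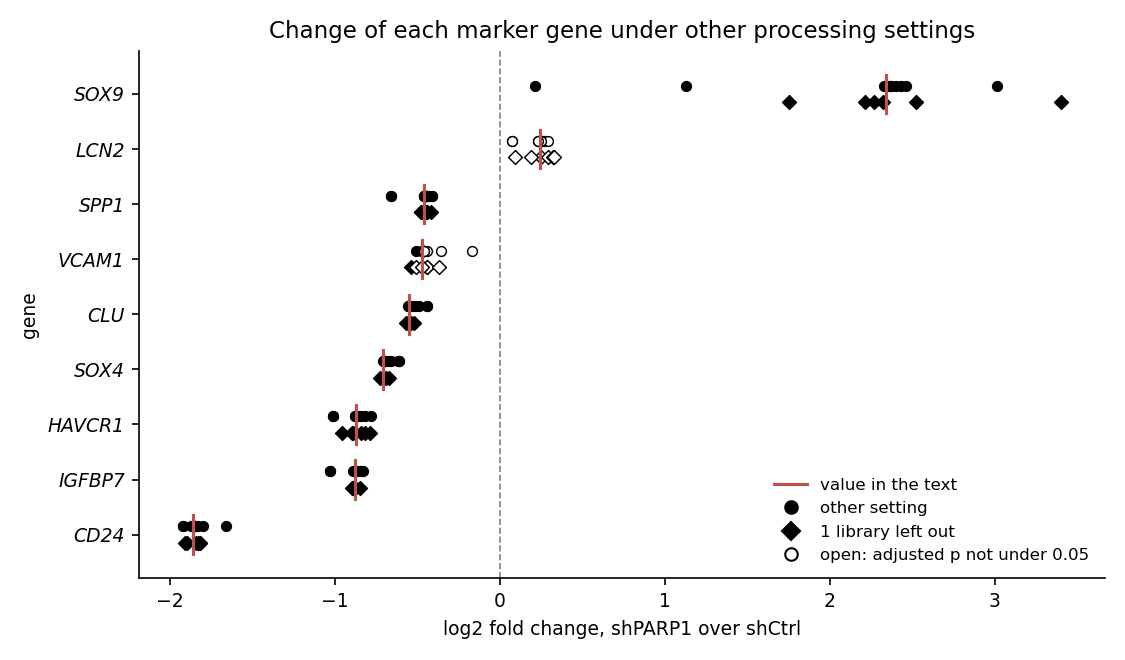
Log2 fold change (shPARP1 over shCtrl) of the 9 marker genes under the main settings (red bar), under other settings (circles) and with each library left out (diamonds); open symbols have an adjusted p of 0.05 or more. CD24 stays between -1.92 and -1.66, SOX9 ranges from 0.21 to 3.40, VCAM1 is open in 10 of 19 alternatives and LCN2 in all 19.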

How the data were processed

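The 10 genes and the lists were chosen with earlier results of these data known. The authors deposited raw read counts per gene and, separately, FPKM values rounded to 2 decimals for 6 libraries. The submitters' processing notes name GRCh38, bcl2fastq, TopHat2 and edgeR, with no version. The counter, its strand setting and the annotation are not stated there. Library pairs within a group differed by more than counting noise (chi-square per degree of freedom 2.54 to 4.63), so none was treated as a library deposited again, and each was counted as 1 sample. Counts were tested in R 4.3.3 with edgeR 4.0.16: filterByExpr, TMM scaling and the robust quasi-likelihood F test of shPARP1 against shCtrl, with a threshold of 0.05 on p-values adjusted by Benjamini-Hochberg over 16040 genes. The script was tested on simulated data. CPM are TMM-scaled. Named genes were the markers, PARP1, up to 4 called genes of smallest p per list, and for each called marker the 2 genes closest in log2 CPM (prior count 2). Some genes this rule names are not reported here. Other fits used limma 3.58.1 and DESeq2 1.42.0. Loci, lengths and GC content came from GENCODE 29 (97.4% of genes matched by Ensembl ID), promoters from RefSeq. Replicate numbers did not pair the libraries.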

Additional observations from a re-analysis of the deposited data

How the results depend on the processing

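Each result was recomputed under 13 other settings and with each of the 6 libraries left out. CD24 (-1.92 to -1.66), IGFBP7 (-1.03 to -0.83), HAVCR1 (-1.01 to -0.78), SOX4 (-0.73 to -0.61), CLU (-0.57 to -0.44) and SPP1 (-0.66 to -0.41) kept their direction and their call in all 19, and LCN2 (0.07 to 0.33) stayed uncalled, with adjusted p from 0.0873 to 0.741. SOX9 kept its call in the 18 that tested it. In the main fit it passed the filter through its shPARP1 libraries alone, so its calls are given as a description. With at least 1 CPM required in 3 libraries it was not tested, which left 0 markers called higher. VCAM1 lost its call with library totals (-0.44), no filter (-0.46), DESeq2 (-0.46), log2(FPKM + 1) (-0.17) and log2(FPKM + 0.1) (-0.36); leaving out a library gave -0.54 to -0.37. Markers called lower numbered 6 to 7 with a library left out, and markers called higher 1. Progenitor and nephrogenesis genes called higher, 2 in the text, were 4 with library totals, with log2(FPKM + 0.1) and with the length and GC correction, 1 with the 1 CPM filter, and 1 to 3 with a library left out. Family relatives called lower were 5 on both FPKM scales against 8. The cause of these shifts was not tested, apart from the filter, which removes genes.

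The replicate numbers in the titles share only a number: deviations from the group means of same-numbered libraries correlated at 0.036, -0.004 and 0.036. With the replicate number as a block 9060 genes were called against 8937 without it, and 7 markers were lower and 1 higher, so that the block changed no call of a marker. The length and GC correction moved SPP1 to -0.66 and LCN2 to 0.07, with the block as without it. Depth limits SOX9, VCAM1, LCN2 and PROM1, with at most 142 reads a library. Summing rows of 1 symbol was not run, since no marker's symbol repeats.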
